A study of Mus musculus with 8 samples.

Results

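The 10 genes described here act in cell cycle arrest and cellular senescence: the cyclin-dependent kinase inhibitors Cdkn1a, Cdkn1b, Cdkn2a, Cdkn2b and Cdkn2c, the p53 arm genes Trp53 and Mdm2, the retinoblastoma gene Rb1, and the nuclear proteins Lmnb1 and Hmgb1. They were taken by symbol from a fixed list of 10 out of the 21207 genes measured, and all 10 were found in all 8 libraries. Single-nucleus RNA-seq had been run on gastrocnemius muscle, a large hindlimb muscle made mainly of fast myofibres, from wild-type C57BL/6 mice. The Old group was 20 months of age and the Young group 3 months, while the Running and Sedentary groups were middle-aged. By the study's methods these mice were 11 months old when the exercise period began, and the Running group then had 2 months of treadmill running, so the muscle was sampled at a greater age than 11 months. All groups were labelled wild type and each had 2 libraries, 1 made with the 10x chemistry (replicate 1) and 1 in a second library set from another droplet platform (replicate 2). The labels do not say that the 2 libraries of a group came from separate animals, so every p-value measures the spread between libraries, which may be technical.

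Cells that stop dividing do so through 2 linked routes. In the first, the tumour suppressor p53, encoded by Trp53 and held down by the ubiquitin ligase Mdm2, switches on Cdkn1a (p21). In the second, the INK4 proteins of the Cdkn2 family block the kinases Cdk4 and Cdk6. Both routes keep the retinoblastoma protein active, and it then holds back the E2F factors that drive S phase. Senescent cells are known for high p16 and p21, for loss of lamin B1 from the nuclear lamina and for release of Hmgb1 from the nucleus. Myonuclei are already post-mitotic, whereas muscle stem cells, stromal cells and immune cells of muscle can divide.

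A total of 64803 nuclei passed the study's filters. The 4 libraries of the 10x set held 10587 to 12991 nuclei and 23327640 to 44389777 UMIs (unique molecular identifiers, each standing for 1 captured RNA molecule), and the 4 of the second set held 4228 to 4772 nuclei and 4765224 to 9088163 UMIs. Levels are given as CPM, the UMIs of a gene per 1000000 UMIs of the library or class. A limit of 3 UMIs was taken as the detection floor, which was 0.0676 to 0.129 CPM in the 10x libraries and 0.330 to 0.630 CPM in the second set. Old replicate 2 stood apart: 84.7% of its nuclei lay in clusters that no marker list named, against 15.9% of nuclei over all libraries, so the Old against Young fold changes of the members are also given without it. Free RNA was present, since 15.8 to 54.6% of nuclei in the non-muscle classes of the 10x set, thinned to 500 UMIs, held the muscle myosin Myh4, and 81.7 to 99.1% did so in the second set. In library sums, fewer nuclei of a type and less RNA per nucleus cannot be told apart. Between 30 and 46 cell barcodes were shared by each pair of 10x libraries, at most 0.39% of a library.

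The most abundant of the 10 genes were detected in a minority of nuclei and the rarest in almost none. Over all libraries, at least 1 UMI was found in 20.8% of nuclei for Rb1, 18.9% for Hmgb1, 12.96% for Mdm2, 8.52% for Trp53, 5.86% for Lmnb1 and 5.14% for Cdkn1b. The share was 1.62% for Cdkn2c, 0.897% for Cdkn1a, 0.304% for Cdkn2b and 0.238% for Cdkn2a, where the whole series held 1224, 692, 221 and 168 UMIs. These shares compare detection, not abundance, because the genes differ in length and whether intron reads were counted is not given in the sources used here. For Hmgb1 and Trp53, processed pseudogenes can take or add reads, so their counts are uncertain.

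**Figure D1:**
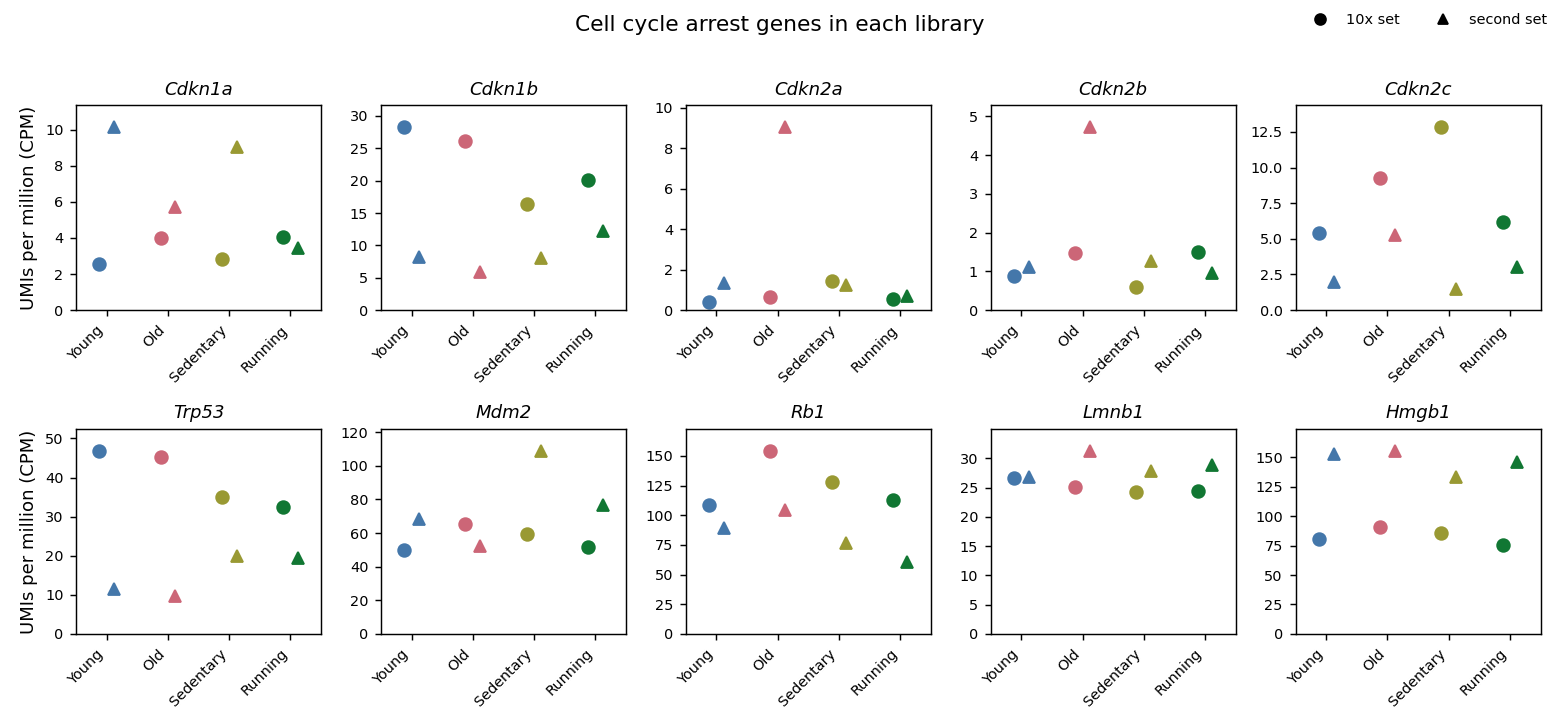
Level of each of the 10 genes in the 8 libraries, in CPM on a linear axis. There is 1 panel per gene and 1 point per library, and the 2 library sets are drawn apart. Cdkn1b, Cdkn2c, Trp53 and Rb1 lie lower in every second-set library than in any 10x library, and Lmnb1 spans the narrowest range.

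The CIP/KIP inhibitors bind cyclin-kinase complexes of several phases. Cdkn1a, the p53-induced inhibitor p21, lies on chr17:29090976-29100727 (mm10, plus strand). The 250 bases before its upstream RefSeq start (chr17:29090729-29090978, GRCm38.p6, plus strand) are shown because they hold 2 copies of the p53 decamer, the repeated unit of the p53 consensus, in capitals, with a spacer of 12 bases.
Cdkn1a upstream window: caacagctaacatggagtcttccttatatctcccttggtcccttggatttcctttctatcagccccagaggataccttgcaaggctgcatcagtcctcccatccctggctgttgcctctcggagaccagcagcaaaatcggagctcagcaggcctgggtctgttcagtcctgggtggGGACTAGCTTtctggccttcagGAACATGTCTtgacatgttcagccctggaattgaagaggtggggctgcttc
Of 32817 RefSeq promoter windows of this length, 7.12% held at least 1 p53 decamer on either strand and 0.064% held a pair with a spacer of at most 13 bases. Only exact matches to the decamer pattern were marked. The bases right after the second marked decamer miss the pattern at their first base and stay in lower case. The spacer given is thus that of the marked pair only. A match is a description of these letters and not evidence of binding.

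Cdkn1a was at 3.98, 2.57, 4.03 and 2.83 CPM in the Old, Young, Running and Sedentary libraries of the 10x set, from 156, 102, 179 and 66 UMIs. In the second set it was at 5.70, 10.1, 3.41 and 9.02 CPM in the same order, from 29, 92, 25 and 43 UMIs. The orders were opposite: the Old and Running libraries were the higher of each pair in the 10x set and the lower of each pair in the second set. A Cdkn1a UMI was found in 0.548 to 1.32% of nuclei of a 10x library, and after thinning every nucleus to 500 UMIs in 0.113 to 0.216%.

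Cdkn1b encodes p27, an inhibitor associated with quiescence. Its level was 26.1, 28.2, 20.05 and 16.4 CPM in the Old, Young, Running and Sedentary libraries of the 10x set. The second set gave 5.89, 8.25, 12.3 and 7.97 CPM. Old was lower than Young and Running higher than Sedentary in each set, by less than the gap between the sets, whose mean levels stood in a ratio of 0.379.

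The INK4 inhibitors are small proteins that bind Cdk4 and Cdk6. The symbol Cdkn2a covers 2 transcripts on chr4:89274471-89294653 (mm10, minus strand), p16Ink4a and p19Arf, which have separate first exons, and the UMIs were not split between them. The 250 bases before each RefSeq start (GRCm38.p6, minus strand) are shown because they are the 2 starts that 1 count stands for. The window of the p16Ink4a start is chr4:89282193-89282442, with 60% G and C, and that of the p19Arf start is chr4:89294620-89294869, with 78.4%.
Cdkn2a p16Ink4a start: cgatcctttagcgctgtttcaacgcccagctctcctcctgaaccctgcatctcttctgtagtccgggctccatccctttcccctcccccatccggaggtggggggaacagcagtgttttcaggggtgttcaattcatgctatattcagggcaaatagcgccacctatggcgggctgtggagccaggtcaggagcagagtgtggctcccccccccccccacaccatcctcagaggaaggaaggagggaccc
Cdkn2a p19Arf start: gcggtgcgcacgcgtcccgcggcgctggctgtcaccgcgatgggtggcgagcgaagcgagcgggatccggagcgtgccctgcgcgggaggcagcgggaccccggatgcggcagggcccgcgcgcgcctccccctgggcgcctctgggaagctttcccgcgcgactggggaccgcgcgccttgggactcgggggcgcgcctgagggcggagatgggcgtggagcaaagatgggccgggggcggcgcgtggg
Neither window held a p53 decamer.

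Cdkn2a was at 0.663, 0.378, 0.541 and 1.46 CPM in the Old, Young, Running and Sedentary libraries of the 10x set, from 26, 15, 24 and 34 UMIs. In the second set it was at 9.03, 1.32, 0.683 and 1.26 CPM, from 46, 12, 5 and 6 UMIs. Old replicate 2 was the highest of the 8 libraries and Sedentary replicate 1 the highest of the 10x set. These were the libraries of each set with the most nuclei in unnamed clusters. Of all 168 Cdkn2a UMIs, 92 (54.8%) came from unnamed clusters, which held 15.9% of nuclei. In Old replicate 2 that was 41 of 46 UMIs (89.1%), near the 84.0% of all UMIs of that library that lay in unnamed clusters. In Sedentary replicate 1 it was 29 of 34 (85.3%), where unnamed clusters held 15.7% of all UMIs and 24.1% of nuclei. In named nuclei, Old replicate 1 had 22 Cdkn2a UMIs, Young replicate 1 10, Running replicate 1 15 and Sedentary replicate 1 5. In the second set named nuclei held 5, 8, 5 and 6 Cdkn2a UMIs in the same order. No more than 0.817% of the nuclei of any library held a Cdkn2a UMI.

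**Figure D2:**
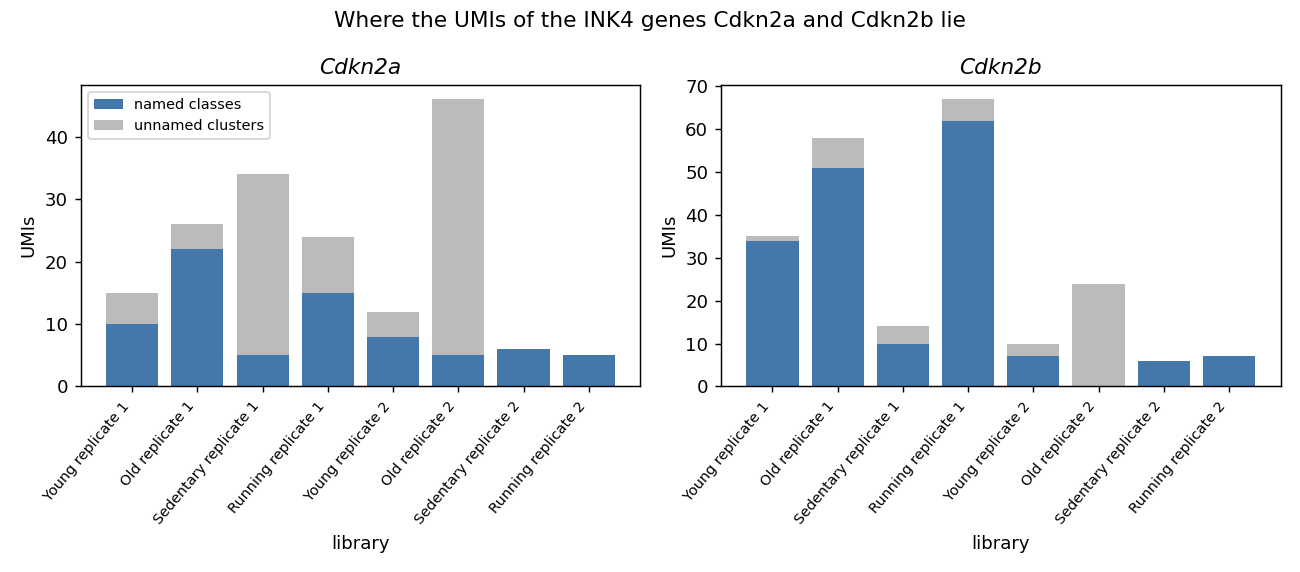
UMIs of Cdkn2a and Cdkn2b in each of the 8 libraries, as bars from 0 stacked by nuclei in named and in unnamed clusters. Most Cdkn2a UMIs of Old replicate 2 (41 of 46) and Sedentary replicate 1 (29 of 34) lie in unnamed clusters, as do all 24 Cdkn2b UMIs of Old replicate 2. Unnamed clusters held 84.0% of all UMIs of Old replicate 2 and 15.7% of those of Sedentary replicate 1.

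Cdkn2b, the neighbour of Cdkn2a on chromosome 4, encodes p15, which responds to TGF-beta. It was at 1.48, 0.881, 1.51 and 0.6001 CPM in Old, Young, Running and Sedentary of the 10x set, from 58, 35, 67 and 14 UMIs. In the second set it was at 4.71, 1.10, 0.956 and 1.26 CPM, from 24, 10, 7 and 6 UMIs. Old was above Young in each set. All 24 UMIs of Old replicate 2 lay in unnamed clusters, which held 84.7% of its nuclei and 84.0% of all its UMIs. Its named nuclei held 0 Cdkn2b UMIs, and with so few UMIs no level can be read there.

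Cdkn2c encodes p18, an INK4 protein induced during the differentiation of muscle and fat cells. It was at 9.28, 5.39, 6.15 and 12.8 CPM in Old, Young, Running and Sedentary of the 10x set, and at 5.30, 1.98, 3.004 and 1.47 CPM in the second set. Old was higher than Young in each set, while Running was lower than Sedentary in the 10x set and higher in the second set. The second-set values rest on 27, 18, 22 and 7 UMIs.

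In the p53 arm, Trp53 was at 45.3, 46.7, 32.5 and 34.98 CPM in Old, Young, Running and Sedentary of the 10x set and at 9.82, 11.4, 19.5 and 19.9 CPM in the second set. Both aged and young libraries were above the middle-aged ones in the 10x set and below them in the second set. Mdm2 was at 65.4, 50.1, 51.5 and 59.7 CPM in the 10x set. Its second-set levels were 52.2, 68.7, 76.7 and 108.7 CPM. Running was below Sedentary in each set for Mdm2, and Old was above Young in the 10x set only.

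Mdm2 is itself a p53 target. The 250 bases before its RefSeq start (chr10:117710759-117711008, GRCm38.p6, minus strand) are shown for the single p53 decamer they hold, in capitals. At least 1 such decamer was held by 7.12% of the 32817 windows. This match is not evidence that p53 acts on Mdm2 at these bases.
Mdm2 window: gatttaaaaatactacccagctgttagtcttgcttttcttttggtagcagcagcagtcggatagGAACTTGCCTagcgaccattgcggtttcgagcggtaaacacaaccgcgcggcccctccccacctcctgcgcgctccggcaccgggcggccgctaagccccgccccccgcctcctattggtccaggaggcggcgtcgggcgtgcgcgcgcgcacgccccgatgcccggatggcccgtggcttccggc
Among the 12 windows of the 8 genes with a RefSeq entry, a p53 decamer was found in 3, 1 each of Cdkn1a, Trp53 and Mdm2. The RUNX core TGTGGT, searched on both strands, was in 0 of the 12 windows and in 14% of the 32817 windows.

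Rb1 encodes the retinoblastoma protein, the substrate on which the kinase inhibitors converge. It was at 153.9, 108.2, 113.0 and 128.1 CPM in Old, Young, Running and Sedentary of the 10x set and at 104.5, 89.2, 60.8 and 76.2 CPM in the second set. The order of the 4 groups was Old first in each set, Running was below Sedentary in each set, and all second-set levels were below all 10x levels.

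Lmnb1 encodes lamin B1, a filament of the inner nuclear membrane on chr18:56707813-56753424 (mm10, plus strand). It was at 25.1, 26.6, 24.4 and 24.3 CPM in Old, Young, Running and Sedentary of the 10x set and at 31.2, 26.8, 28.8 and 27.9 CPM in the second set. Its range was 1.10-fold over the 4 libraries of the 10x set and 1.16-fold over those of the second set. Old was below Young in the 10x set and above it in the second set. Hmgb1, a chromatin protein that bends DNA, was at 91.0, 80.6, 75.2 and 86.1 CPM in the 10x set and at 155.2, 152.4, 146.2 and 133.0 CPM in the second set. Its mean level was 1.76 times as high in the second set, and no second-set library overlapped a 10x library.

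The question of whether these genes differed with age was addressed by comparing Old with Young in a fit over library sums (edgeR quasi-likelihood, library set as a block, fold changes as log2 of Old over Young ± SE, n = 2 libraries per group). None of the 10 genes was called at an adjusted p of 0.05, and 0% of all 20309 genes tested were called. At an unadjusted p under 0.05 there were 556 genes, none of them a member, and DESeq2 called 0 genes too. Cdkn2a had the largest fitted value at 1.66 ± 1.07 (edgeR adjusted p = 0.693), followed by Cdkn2b at 1.03 ± 0.91 and Cdkn2c at 0.70 ± 0.67. Without Old replicate 2 these values were 0.01 ± 1.04 for Cdkn2a, 0.52 ± 1.03 for Cdkn2b and 0.45 ± 0.70 for Cdkn2c. Cdkn1b (−0.59 ± 0.57), Cdkn1a (−0.51 ± 0.77) and Trp53 (−0.44 ± 0.57) lay below 0. Lmnb1 was at −0.34 ± 0.38, Mdm2 at −0.30 ± 0.48, Hmgb1 at −0.29 ± 0.35 and Rb1 at −0.04 ± 0.35. Without Old replicate 2 Cdkn1a was at 0.02, Trp53 at 0.11, Mdm2 at 0.29 and Rb1 at 0.15, now above 0, and Cdkn1b was at −0.04, Lmnb1 at −0.20 and Hmgb1 at −0.04. The median over the members was −0.29, beside 0.19 over all genes tested, with 3 members and 56.2% of all genes higher in Old. With library totals as scaling, by the mean log2 CPM difference of the 2 library pairs, 7 members were higher and 3 lower. That was beside a median of 0.47 over all genes, and Rb1, Mdm2, Lmnb1 and Hmgb1 were the 4 that changed sign. Within the library sets, the log2 CPM differences were taken after adding 1 CPM to each level, which draws genes near or under 1 CPM toward 0. They had 1 sign in both sets for 7 of the 10 genes. For Rb1 (0.51 and 0.23) and Hmgb1 (0.18 and 0.03) that sign was opposite to the fitted one. Adjusted p-values from edgeR were 0.693 to 0.962. The SEs ran from 0.35 to 1.07 log2 units.

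To ask whether treadmill running moved the same genes, the fit compared Running with Sedentary. Again 0 of the 10 genes and 0% of the 20309 genes were called, with 98 genes and no member at an unadjusted p under 0.05 and 0 genes called by DESeq2. Cdkn2a was at −1.21 ± 1.06 and had the smallest p of the members (edgeR unadjusted p = 0.286, adjusted p = 0.9999). Without Sedentary replicate 1 its value was 0.04. Cdkn2b was at 0.62 ± 0.95, Cdkn1b at 0.52 ± 0.58, Cdkn1a at −0.37 ± 0.77 and Cdkn2c at −0.18 ± 0.69. Mdm2 was at −0.37 ± 0.47, Rb1 at −0.23 ± 0.35, Trp53 at −0.04 ± 0.58, Lmnb1 at 0.05 ± 0.38 and Hmgb1 at 0.00 ± 0.35. Every member except Cdkn2a lay within 1 SE of 0. The median over the members was −0.11, beside −0.04 over all genes, with 4 members higher and 6 lower, or 3 and 7 with library totals as scaling. For 6 of the 10 genes the difference had 1 sign in both sets.

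**Figure D3:**
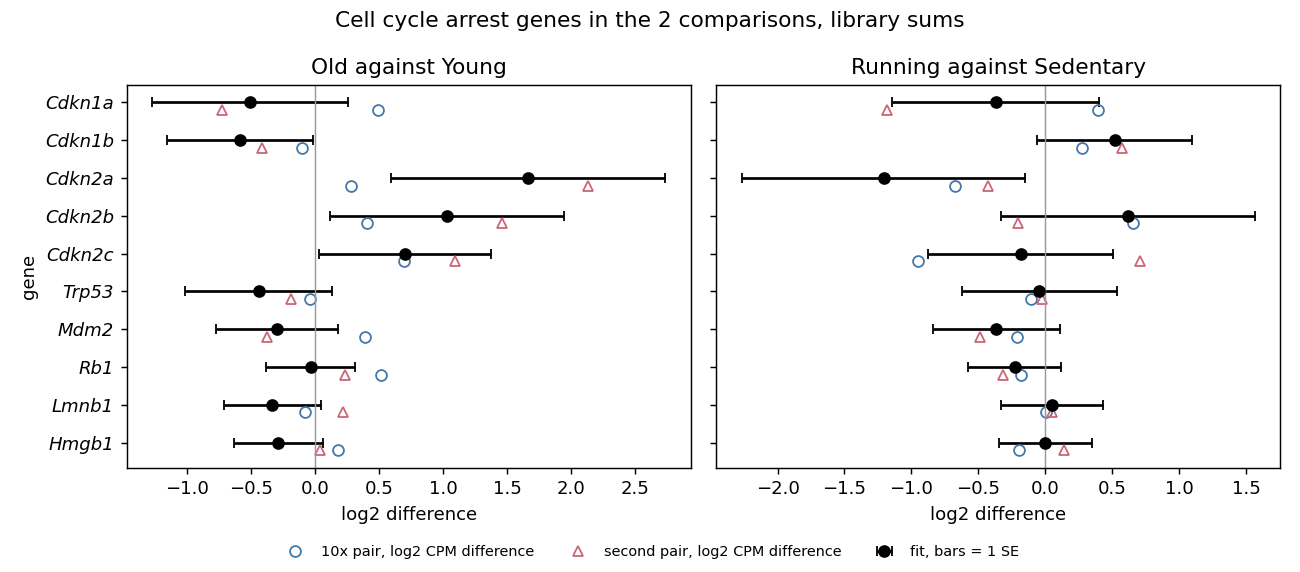
Log2 fold change of the 10 genes, Old over Young in one panel and Running over Sedentary in the other, as filled points with bars of 1 SE from the edgeR fit, and as the log2 CPM difference within the 10x pair (open circles) and within the second-set pair (open triangles). The log2 CPM differences were taken after adding 1 CPM, which draws genes near or under 1 CPM, such as Cdkn2a, toward 0. The bars of most genes span 0. On that scale the Cdkn2a difference of the second-set Old and Young pair (2.13) is far from that of the 10x pair (0.28).

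The wider pathway gave the same counts. A further 8 lists with 113 genes were read in the same fits, of which 104 genes were tested, and 0 rose and 0 fell in either comparison. Among the other p53 targets, 9 of 20 tested genes were higher and 11 lower in Old, and cyclin G1 (Ccng1) had the smallest p of any list gene at −1.24 ± 0.40 (edgeR unadjusted p = 0.0155, adjusted p = 0.693), with 933 UMIs in Old and 1694 in Young replicate 1, and 487 in Old and 1586 in Young replicate 2. Its log2 CPM difference was −0.81 in the 10x pair and −0.85 in the second pair. Cdk6, the INK4-bound kinase, was at 1.25 (unadjusted p = 0.0618 in the edgeR fit) and was among 11 tested kinases, cyclins and inhibitors, 9 of them higher in Old. The log2 CPM difference of Cdk6 was 0.63 in the 10x pair and 2.32 in the pair with Old replicate 2. The architectural protein gene Hmga2 was at 2.33 (unadjusted p = 0.0678 in edgeR), with 4 of 10 lamina and chromatin genes higher and 6 lower, and its difference was 0.65 in the 10x pair and 3.24 in the second pair. Of the Polycomb genes, which repress the Cdkn2a locus, 1 was higher and 8 lower in Old in the fit, with Eed at −0.52. Neither library pair by itself gave that split. The log2 CPM difference had the same sign in both pairs only for Cbx7 (1.02 and 0.60) and Eed (−0.03 and −0.30). E2f3 (−0.51), Mybl2 (0.93), Crebbp (−0.61) and Hgf (1.71) had the smallest p of the E2F, proliferation, p53 regulator and secreted factor lists, and none passed the test. In Running against Sedentary, the genes with the smallest p of their lists were Cdkn1c (1.34), Btg2 (1.02), Emd (0.86), Aurka (0.87), Cbx8 (0.77), E2f8 (−1.37), Usp7 (−0.18) and Mmp13 (−2.54), and none of these passed either.

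Several members differed between kinds of nuclei. Of the retained nuclei, 38079 were in classes of myonuclei and the rest in non-muscle classes or unnamed clusters. Nuclei were clustered within each library set and clusters were named only from marker lists, so adipocyte below means adipocyte-like, and likewise for the other names. The levels by class below are of the 10x set, in the 10 classes with at least 20 nuclei in every library. They are descriptions without a test, since the clustering used the same counts. Cdkn2c was at 66.2, 84.97, 63.2 and 91.0 CPM in adipocytes of the Old, Young, Running and Sedentary libraries. The next class, muscle stem cells, had a mean of 18.2 CPM (9.64 to 28.0), below every adipocyte value. Adipocytes were 1.88 to 4.79% of nuclei and gave 33.0 to 49.5% of the Cdkn2c UMIs of their library. Their level was 10.2 to 31.7 times that of all other named nuclei of the same library. The second set did not show this. Old replicate 2 had 240 adipocyte nuclei with 262032 UMIs, but all 732 named nuclei of that library held 1 Cdkn2c UMI (1.23 CPM). The other second-set libraries had 4 to 10 adipocyte nuclei, too few to read a level.

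Rb1 was highest in macrophages, at 380, 432, 362 and 336 CPM in the Old, Young, Running and Sedentary libraries. That was 2.65 to 4.29 times the level of the other named nuclei of the same library. Adipocytes (mean 253 CPM, and 337 in Running, just inside the macrophage range) and endothelial cells (239) followed, and Type IIb myonuclei, the nuclei of the fastest fibres, were lowest at 90.8. Mdm2 was also highest in macrophages, with a mean of 100 CPM, and lowest in Type IIa/IIx myonuclei at 48.6, with ranges that overlapped between neighbours.

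Lmnb1 had its lowest class mean in adipocytes, at 9.92, 12.8, 12.3 and 11.4 CPM in the Old, Young, Running and Sedentary libraries. The adipocyte level was 0.386 to 0.501 of that of the other named nuclei, but the ranges of pericytes (from 3.05 CPM), the neuromuscular (from 7.27) and myotendinous (from 9.90) junctions and endothelial cells (from 11.2) reached as low in single libraries. Muscle stem cells had the highest mean at 36.6 CPM, with 35.6, 52.6, 35.9 and 22.4 in the Old, Young, Running and Sedentary libraries, the last from 4 UMIs. In Type IIb myonuclei Lmnb1 was at 25.4, 24.5, 24.6 and 26.7 CPM, a narrow range from 219 to 578 UMIs.

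The remaining members were less sharply distributed. Cdkn1b had its highest mean in muscle stem cells (54.5 CPM) and its lowest at the myotendinous junction (13.7). Trp53 was highest in muscle stem cells (62.6) and lowest in pericytes (17.3), where 3 libraries had 3 UMIs each. Cdkn1a ran from 11.1 CPM at the myotendinous junction and 9.27 in macrophages to 1.498 in Type IIb myonuclei, with overlapping neighbours and at most 15 UMIs per library at the junction. Hmgb1 ran from 117 CPM in endothelial cells to 69.7 at the myotendinous junction. Cdkn2b had its highest mean, 3.89 CPM, in adipocytes. Cdkn2a stayed at or below a mean of 1.71 CPM in every class and was at 0 of 1872495 UMIs at the neuromuscular junction, which allows up to 1.602 CPM by counting error only.

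**Figure D4:**
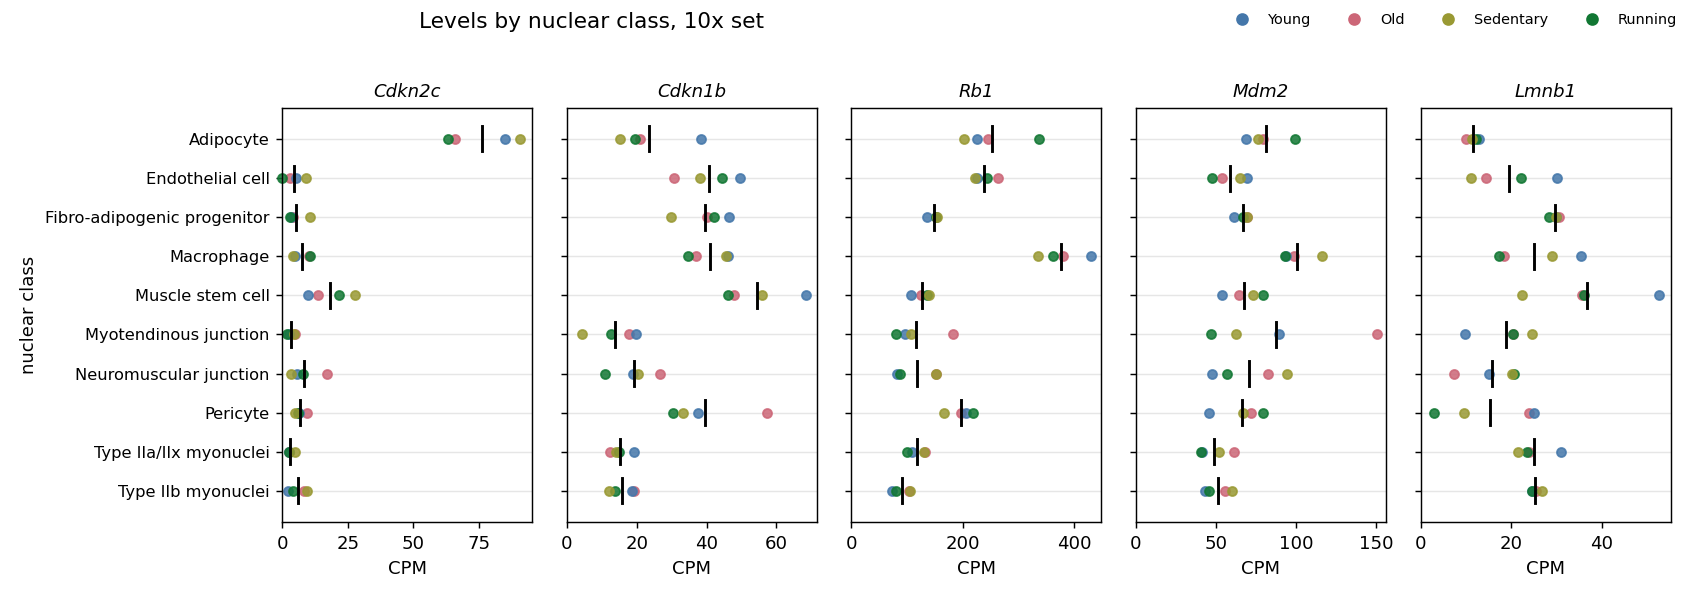
Levels of Cdkn2c, Cdkn1b, Rb1, Mdm2 and Lmnb1, in CPM, in the 10 nuclear classes of the 10x set, with 1 point per library coloured by group and a black bar at the mean of the 4 libraries. Adipocytes stand above all other classes for Cdkn2c and have the lowest mean for Lmnb1 (0.386 to 0.501 of the other named nuclei), and macrophages have the highest mean for Rb1.

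Genes outside the lists whose levels ran most like a member over the 40 class-by-library sums of the 10x set are given by Pearson's r of log2 CPM, without a p, since sums of 1 library share its depth and free RNA. Rb1 was most like Tnfaip8 (0.90), Gda and Skap2. Cdkn1b was most like Mbd2 (0.86), Stag1 and Dennd6a, and Cdkn2c was most like Sik2 (0.81), Mmd and Prkar2b. Trp53 came nearest to Naa50 (0.77), Usp37 and Gatad2b, Hmgb1 to Polr2b (0.70), Gopc and Lrrk2, and Mdm2 to Pisd (0.69), Psmd14 and Socs6. For the sparser patterns, Cdkn2b came nearest to Recql5 (0.66), Dido1 and Ppwd1, Lmnb1 to Ccdc6 (0.65), Nol11 and Man1a2, and Cdkn1a to Fam214b (0.58), Jun and Ppp1r8. Cdkn2a had fewer than 100 UMIs in the 10x set and was not ranked.

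Within classes, sums of libraries with at least 20 nuclei were compared, in 8 comparisons over Type IIb and Type IIa/IIx myonuclei, the myotendinous and neuromuscular junctions and fibro-adipogenic progenitors, the stromal cells of muscle. The fits of the neuromuscular junction and of the progenitors left out Old replicate 2, which had 16 and 13 such nuclei. Of 54 tests of members, 0 were called and 1 had an unadjusted p under 0.05. In edgeR the background over all genes was 0.00656% called in Type IIb myonuclei and 0.0075% in Type IIa/IIx myonuclei for Old against Young, and 0% for both in Running against Sedentary. It was 0% at the myotendinous junction in both comparisons, 0.142% in fibro-adipogenic progenitors and 0.363% at the neuromuscular junction in Running against Sedentary. The lowest p was that of Cdkn2c in Type IIb myonuclei, where Old had 132 UMIs (8.10 CPM) and Young 47 (1.99 CPM) in the 10x set, and both had 0 in the second set. The fold change was 1.90 ± 0.82 (edgeR unadjusted p = 0.0363, adjusted p = 0.775) and was thus set by the 10x pair. The Sedentary library, at 9.52 CPM, was above Old, and Running was at 4.09 CPM. At the myotendinous junction Rb1 was at 0.86 ± 0.43 in Old against Young (edgeR unadjusted p = 0.0553, adjusted p = 0.998). There Old replicate 1 had 183 CPM of Rb1 and 150 of Mdm2, above the other 10x libraries at 79.6 to 106.8 and 46.7 to 89.1.

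A small set of myonuclei held high levels of Mdm2 and Rb1. In the second library set, 177 nuclei formed a cluster named from a list of markers of denervated muscle. There were 30, 39, 20 and 88 in the Old, Young, Running and Sedentary libraries. The list includes Runx1, a transcription factor that rises when a fibre loses its nerve. Of the list, 3 genes were found in at least 5% of the cluster's nuclei. Only Sh3d19 was among its 10 leading genes, and Runx1 was not, so the name is weakly supported. Mdm2 was at 534, 556, 812 and 857 CPM there, from 19, 51, 35 and 93 UMIs, and Rb1 at 590, 556, 719 and 553 CPM. Other classes of that set had mean Mdm2 levels of 55.9 to 104 CPM. Cdkn1a was at 0, 76.3, 23.2 and 111 CPM in the cluster, from 0, 7, 1 and 12 UMIs. Lmnb1 was at 0 UMIs in all 4 libraries, which over 278908 UMIs allows up to 10.8 CPM. The 10x set had no such cluster.

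To read the pattern in all 8 libraries, the 38079 named myonuclei were grouped by how many of 6 genes of that marker list (Runx1, Sh3d19, Ncam1, Chrng, Myh3 and Myh8) they held a UMI of. This grouping was chosen after the cluster's values were seen and gets no test. The named myonuclei of the second set include the cluster's own nuclei, so only the 10x libraries are separate from what was first seen. At least 2 of the genes were found in 356 nuclei, 17 to 100 per library and 0.27 to 3.55% of its myonuclei. In these nuclei Mdm2 was at 252, 196, 129 and 217 CPM in the Old, Young, Running and Sedentary libraries of the 10x set, and at 275, 334, 389 and 740 CPM in the second set. Mdm2 in myonuclei with none of the genes lay between 43.2 and 89.9 CPM, below the marker-positive nuclei of every library. Rb1 was at 355, 609, 231 and 581 CPM in the 10x set and 241, 291, 373 and 592 CPM in the second set, against 56.3 to 105.8 CPM in nuclei with none. The median log2 difference was 2.02 for Mdm2 and 2.02 for Rb1, with a prior of 10 CPM, which ranked 44 and 45 of the 10671 genes compared.

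Cdkn1a counts in the marker-positive nuclei were small. They reached the floor of 3 UMIs in 4 libraries, with 34 UMIs (51.3 CPM) in Old replicate 1, 12 (46.5 CPM) in Sedentary replicate 1, 7 (43.3 CPM) in Young replicate 2 and 11 (203 CPM) in Sedentary replicate 2. Nuclei of these libraries with none of the genes were at 1.68, 1.45, 6.39 and 4.13 CPM, lower in each. In the other 4 libraries the value rested on 1 or 2 UMIs, under the floor, and no direction can be read. The marker-positive nuclei gave 21.8% of the Cdkn1a UMIs of Old replicate 1 and 18.2% of those of Sedentary replicate 1, and 0.98% and 1.117% in Young and Running replicate 1. Trp53 was higher in 1 library and lower in 7, Lmnb1 and Hmgb1 were each higher in 2 and lower in 6, and Cdkn1b higher in 3 and lower in 5. Trp53, Lmnb1 and Cdkn1b had 0 UMIs in the marker-positive nuclei of 2 libraries each. These nuclei held 29075 to 161581 UMIs per library in the second set. In sums so small a lower value can be a missed count, so these directions are weakly held. Over all genes compared, 2.3% were higher in all 8 libraries and 3.99% were lower in all. Of the 6 members above the minimum mean of 5 CPM for this count, which Cdkn1a did not reach, Mdm2 and Rb1 were higher in all 8.

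Related genes were mixed. Gadd45a, a growth-arrest gene, was higher in 7 of 8 libraries, at 0 to 666 CPM against 3.54 to 25.8 CPM. The p53 regulator Mdm4 (1 of 8 such genes), the p53 target Eda2r (1 of 15 such targets) and the lamin A gene Lmna (1 of 6 lamina genes) were higher in all 8, while 1 other p53 target and 1 lamina gene were lower in all 8. The marker-positive nuclei were deeper, with a median of 5422 UMIs against 3680 in Old replicate 1. With each nucleus thinned to 500 UMIs before grouping, 75 nuclei remained, 2 to 17 per library, and in these Mdm2 was higher in 6 of 8 libraries, Rb1 in 6 and Cdkn1a in 2, with Cdkn1a lower in 5. In such small sums 0.0835% of all genes were higher in all 8 libraries and 32.5% lower in all, and of the related genes above only Mdm4 was still higher in all 8. The median log2 difference in thinned counts was 2.59 for Mdm2 and 1.52 for Rb1, beside −1.31 over all genes. The part of depth in the pattern was not tested further.

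**Figure D5:**
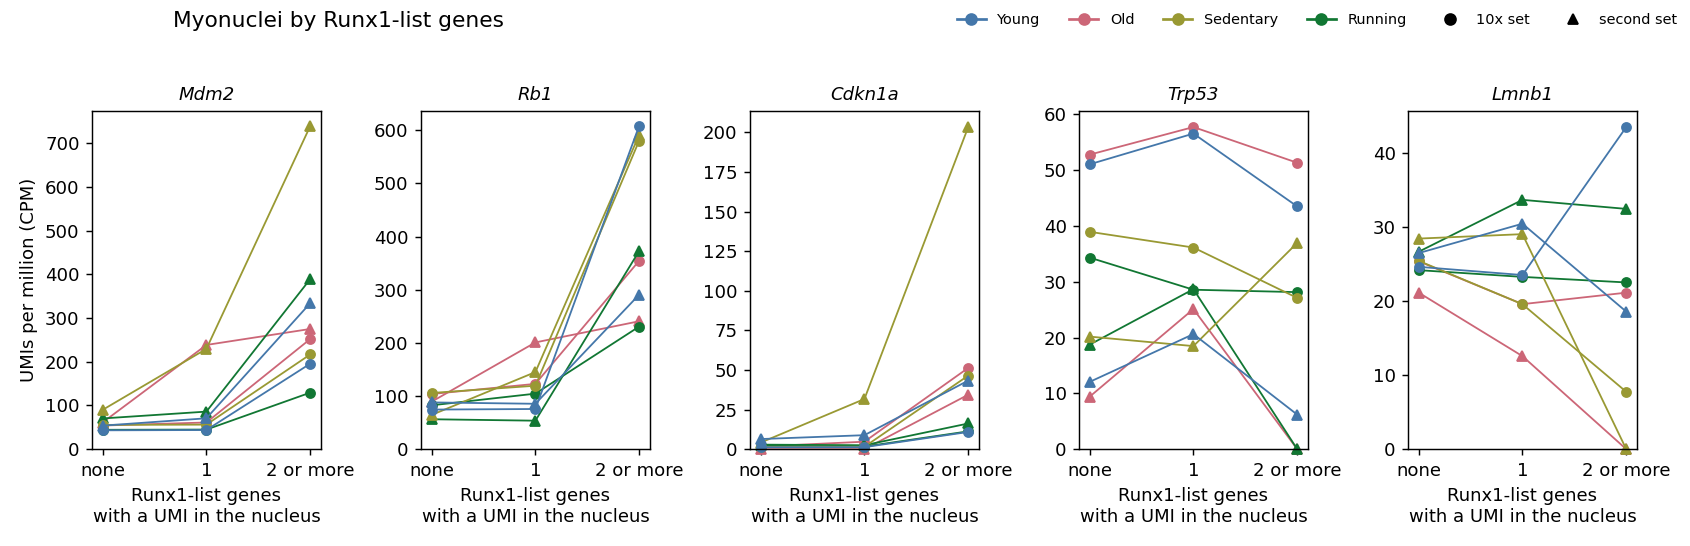
Levels of Mdm2, Rb1, Cdkn1a, Trp53 and Lmnb1, in CPM, in named myonuclei, with 1 line per library. Nuclei are grouped by a UMI of none, of 1, or of 2 or more of the 6 marker genes, Runx1 among them. For Mdm2 and Rb1 the level in nuclei with 2 or more is the higher one in all 8 libraries, while Trp53 is lower in 7 libraries and Lmnb1 in 6. Trp53 and Lmnb1 each had 0 UMIs in such nuclei of 2 libraries, where the sums are small. The second-set nuclei include those of the cluster in which the Mdm2 and Rb1 levels were first seen.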

How the data were processed

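Nuclei of gastrocnemius muscle were profiled by single-nucleus RNA-seq in 8 libraries. The deposited matrices hold unnormalised UMI counts of every nucleus, made by the authors with Cell Ranger 6.1.2 for the 10x set and PISA for the second set, against mm10. The counts were used as deposited. Nuclei with more than 200 and fewer than 6000 detected genes and under 6% mitochondrial UMIs were retained, as in the study's methods. The clustering, the sums for the fits and the ranking of like genes left out 12 mitochondrial and 98 ribosomal genes. The UMI totals behind the CPM levels, the detection floors and the thinning include them. Nuclei were clustered within each set (scanpy 1.11.5, leidenalg 0.10.2, resolution 1) and named from 18 marker lists. Scrublet marked no nuclei in 5 libraries and thus had not worked there, so doublets were kept in the main values. UMIs were summed per library, and per class with at least 20 nuclei in a library, and tested with edgeR 4.0.16 (R 4.3.3, quasi-likelihood, TMM, group plus library set, Benjamini-Hochberg adjusted p of 0.05). An exact permutation test of 2 against 2 libraries cannot go below p = 0.333 and was not used. Shares of nuclei have 95% Wilson intervals, which cover counting error only. The scripts were tested on simulated data. In counts simulated for Old against Young, genes were changed by 1, 2, 4 or 6 log2 units, 50 genes each. The fit called 0, 6, 35 and 49 of them in that order, and 2 unchanged genes. A change of 1 log2 unit was thus not detectable in that simulation. The changed genes had a mean of at least 5 CPM, which Cdkn2a and Cdkn2b did not reach. The simulated counts had the same spread for all genes and no difference between the library sets. The recovery may thus differ for the members. Named genes were the 10 members, the 3 genes most like each member with at least 100 UMIs in the 10x set, and from each list the gene with the smallest p. The members and lists were chosen with earlier results of these data known. Gadd45a, Mdm4, Eda2r, Lmna and the Runx1 grouping were chosen after their values were seen. A further gene of the Runx1 marker list was left out of that grouping and is not reported here. The starting age of the middle-aged groups comes from the study's methods. Promoter windows are RefSeq sequences of GRCm38.p6.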

Additional observations from a re-analysis of the deposited data

How the results depend on the processing

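The values of the 10 members in library sums were recomputed under the alternatives, giving 336 values, none with an adjusted p under 0.05 (smallest 0.101), and 39 of them reversed in sign, all of results that had not been called. The library set was the replicate block of the fits, and the labels give no other pairing. Without the replicate block Rb1 in Old against Young was 0.045, and the counts of genes called fell to 0 in fibro-adipogenic progenitors and at the neuromuscular junction (Running against Sedentary) and to 0 in Type IIa/IIx and Type IIb myonuclei (Old against Young). Fits of only the 4 libraries compared called 4 genes in Old against Young and 82 in Running against Sedentary, with Rb1 at 0.0050 and Trp53 at 0.035. At a clustering resolution of 0.5, 1 gene was called at the neuromuscular junction and 1 at the myotendinous junction (Running against Sedentary), and 0 in Type IIb myonuclei (Old against Young). Leaving out the nuclei with the highest Scrublet scores gave 1 gene at the myotendinous junction. Thinned counts gave Rb1 0.10 in Old against Young and, in Running against Sedentary, Cdkn2c 0.17, Lmnb1 −0.018 and Hmgb1 −0.040. A pair of settings was chosen after seeing the data. Library totals as scaling in the edgeR fit gave Rb1 0.37, Mdm2 0.052, Lmnb1 0.070 and Hmgb1 0.11 in Old against Young, and Hmgb1 −0.028 in Running against Sedentary. The median of 0.47 over all genes given above for library totals is not from that fit. It is of the mean log2 CPM difference of the 2 library pairs. Named nuclei alone gave Rb1 0.15, Mdm2 0.17 and Cdkn2b −0.048 in Old against Young, and Lmnb1 −0.0082 and Hmgb1 −0.056 in Running against Sedentary. The cause was not tested for any of these.

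Leaving out 1 library at a time gave 0 to 8 genes called in library sums for Old against Young and 0 to 418 for Running against Sedentary. By class the ranges for Old against Young were 0 to 35 at the myotendinous junction, 0 to 125 in Type IIa/IIx and 0 to 185 in Type IIb myonuclei. For Running against Sedentary they were 0 to 77 in fibro-adipogenic progenitors, 0 to 32 at the myotendinous and 0 to 99 at the neuromuscular junction, 0 to 151 in Type IIa/IIx and 0 to 146 in Type IIb myonuclei. Among the members, Old against Young ranged over −1.17 to 0.18 for Cdkn1a, −1.21 to 0.29 for Mdm2, −0.31 to 0.18 for Rb1, −1.45 to 0.11 for Trp53, −1.56 to −0.04 for Cdkn1b, 0.01 to 2.58 for Cdkn2a, 0.52 to 1.43 for Cdkn2b, 0.45 to 0.89 for Cdkn2c, −0.57 to −0.20 for Lmnb1 and −0.65 to −0.04 for Hmgb1, and over −5.16 to 7.09 for Cdkn2c in Type IIb myonuclei. Running against Sedentary ranged over −1.19 to 0.29 for Cdkn1a, −0.13 to 0.99 for Cdkn1b, −2.06 to 0.040 for Cdkn2a, −0.27 to 1.24 for Cdkn2b, −0.83 to 0.85 for Cdkn2c, −0.79 to 0.19 for Mdm2, −0.71 to 0.66 for Trp53, −0.34 to −0.13 for Rb1, −0.12 to 0.25 for Lmnb1, −0.19 to 0.16 for Hmgb1 and −1.51 to 0.73 for Cdkn2c in Type IIb myonuclei. Where this left a group with 1 library, that library was assumed to vary like the others. With 2 libraries per group and 168 Cdkn2a UMIs in all, absence of a call shows only what was not detectable with so few libraries at this depth.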
